A study of Macaca fascicularis with 3 samples.

Results

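Glucose transporters and glycolysis enzymes were followed gene by gene in cynomolgus monkey germ cells made from embryonic stem cells. The 10 genes were a listed set of symbols, drawn up with earlier results of these data known: SLC2A1, SLC2A3, HK2, PFKP, ALDOA, PGK1, ENO1, PKM, LDHA and LDHB. Of these, 9 were found by symbol among the 26017 monkey features counted. LDHA is absent as a symbol, and its values were read from the feature LOC101867330, which carries the name LDHA in RefSeq (assembly T2T-MFA8v1.1). Counts of genes below therefore run over the 9 symbols, with LDHA given beside them.

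Glycolysis turns glucose into pyruvate in the cytosol. Glucose enters through facilitative transporters, is phosphorylated by a hexokinase, is committed to the pathway by phosphofructokinase and split by aldolase, and the later enzymes (phosphoglycerate kinase, enolase, pyruvate kinase) return ATP and pyruvate. Lactate dehydrogenase reduces pyruvate to lactate, while the mitochondrial pyruvate carrier and pyruvate dehydrogenase lead it to the citric acid cycle. Primordial germ cells are known to change their use of these routes as they develop, and several isozymes of the pathway have germ-cell forms, the best known in the male germ line.

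The cells came from xrOvaries, aggregates in which germ cells of the wild-type line 15XRi-AGVT#7, a single reporter line carrying TFAP2C-EGFP and DDX4-tdTomato, were cultured with mouse fetal ovarian somatic cells. There was 1 library per embryonic stage of the mouse partner (E13.5, E14.5, E15.5), and values given in threes follow that sequence. The culture age carried the same label in all 3 (ag49+52), so the mouse stage and the library cannot be told apart. Sorted large reporter-positive monkey cells and small reporter-negative mouse cells were mixed before capture, so cell shares reflect that mixing, and a cell type label of early oogonia was given to every library.

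Germ cells were taken as barcodes with 2 to 20% of their UMIs (unique molecular identifiers, 1 per captured transcript) in the 13 mitochondrially encoded genes and at least 10000 UMIs. They numbered 2186 of 7827 deposited barcodes (537, 536 and 1113). A level of 400 CPM POU5F1, the pluripotency factor kept by early germ cells, set apart 417 POU5F1-high cells (61, 126 and 230). A level of 50 CPM STRA8, a gene induced by retinoic acid at the approach to meiosis, gave 447 STRA8-positive cells (132, 66 and 249). The top 5% by SYCE3, a protein of the synaptonemal complex of meiotic prophase, gave 109 SYCE3-high cells (27, 27 and 55). The remaining 1210 germ cells (317, 316 and 577) are called ungated, and 3 cells in conflicting gates were left out. These gates are ranges of a level, not cell types: 44 cells lay at 200 to 400 CPM POU5F1 and 326 at 25 to 50 CPM STRA8, just outside.

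The markers followed the gates. Summed over 10 meiotic genes, the level lay between 2730 and 3777 CPM in SYCE3-high cells, against 462 to 521 CPM in STRA8-positive cells and 108 to 151 CPM in POU5F1-high cells. Germ cells held 957 to 1194 CPM of 8 germ cell markers, and mouse somatic barcodes (under 1% mitochondrial UMIs, 4099 in all) held 20.01 to 44.9 CPM. Of 6 supporting cell markers, WNT4 among them, germ cells held 62.2 to 70.5 CPM and mouse barcodes 1197 to 1571 CPM. Median depth was 33411 to 45284 UMIs in SYCE3-high cells and 47815 to 65472 UMIs in POU5F1-high cells.

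Libraries shared cell barcodes. Between 199 and 643 barcodes were called in both of any pair of libraries, and 669 of the 2186 germ barcodes had such a copy, none of them a germ cell in the other library. The germ barcodes concerned had a median of 57902 UMIs and their copies 974.5 UMIs. Such barcodes made up 77 of 109 SYCE3-high cells and 184 of 447 STRA8-positive cells, against 6 of 417 POU5F1-high cells. Without them 6, 18 and 8 SYCE3-high cells remain, and fold changes of many named genes in SYCE3-high cells are also given on those cells. Where none is given, as for GPI, GAPDH, PGAM1, ENO3 and PFKFB1, the SYCE3-high values rest on all SYCE3-high cells. The origin of the shared barcodes was not tested.

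Levels of the states are given as scaled CPM: UMIs summed over the cells of a state in a library, divided by a library size that edgeR scaled with TMM. Scaling matters here. The 91 ribosomal protein genes took 10.1 to 11.3% of UMIs in SYCE3-high cells and 26.0 to 29.8% in POU5F1-high cells. The plain CPM of all other genes shifts with that share. How much of the difference between the scales comes from it was not tested. On library totals in place of TMM, the median log2 difference of all genes was 0.64 for SYCE3-high over POU5F1-high and 0.58 for STRA8-positive over POU5F1-high. With TMM it was 0.024 and 0.041. TMM itself centres such differences, so these values do not show which scale is right. Differences between states were tested with edgeR's quasi-likelihood test over 15357 genes with library as a block, and p-values were adjusted over all of them. The 3 libraries served as repeats and differ in mouse stage. With the library as a block, a p-value weighs a difference between states against its variation from library to library, in these 3 libraries only. Counts of 3' ends carry no length term, so levels are compared within a gene. Where UMIs of a pair of genes are given as a share, the share is one of captured UMIs and is compared between groups. Gene coordinates and sequences were not used here.

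Among the transporters, SLC2A3 (GLUT3), a high-affinity glucose transporter, was lower in each later state. It stood at 139, 130 and 147 scaled CPM in POU5F1-high cells, at 76.4, 79.5 and 59.9 in ungated cells, at 82.8, 70.6 and 43.6 in STRA8-positive cells, and at 22.9, 28.8 and 22.7 in SYCE3-high cells. No STRA8-positive or SYCE3-high library reached the lowest POU5F1-high library, and the SYCE3-high libraries lay below every STRA8-positive one. The log2 fold change was −1.15 ± 0.14 (SE, adjusted p = 7.99e-07) for STRA8-positive over POU5F1-high cells and −2.497 ± 0.19 (adjusted p = 1.50e-09) for SYCE3-high over POU5F1-high cells, a 5.65-fold fall. The last value was −1.89 ± 0.28 (adjusted p = 2.28e-06) without the shared barcodes and −1.88 ± 0.21 (adjusted p = 2.05e-07) on library totals. SYCE3-high cells were also below STRA8-positive cells, by a log2 fold change of −1.35 ± 0.21 (adjusted p = 2.46e-05), and by −0.85 ± 0.32 (adjusted p = 0.0410) without the shared barcodes.

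SLC2A1 (GLUT1), the widespread basal glucose transporter, was a low-count gene in these cells. Its level was 5.47, 5.22 and 6.67 scaled CPM in POU5F1-high cells, 3.73, 4.96 and 2.75 in ungated cells and 5.79, 5.97 and 4.53 in STRA8-positive cells. In SYCE3-high cells it rested on 2, 0 and 5 UMIs, and in E14.5 the count of 0 allows up to 2.54 scaled CPM by the floor of 3 counts. The POU5F1-high and STRA8-positive ranges overlapped, with a log2 difference of −0.18 ± 0.28 (adjusted p = 0.567), while SYCE3-high cells were lower than POU5F1-high cells by −2.28 ± 0.52 (adjusted p = 0.000760). That last call rests on the 7 UMIs above and was not kept without the shared barcodes (−1.61 ± 0.93, adjusted p = 0.151).

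SLC2A3 made up 96.0 ± 0.304% of the UMIs of the pair SLC2A3 plus SLC2A1 in POU5F1-high cells, 95.02 ± 0.791% in ungated cells, 92.1 ± 1.44% in STRA8-positive cells and 95.9 ± 3.58% in SYCE3-high cells (SD, n = 3 libraries). The share stayed above 90% in every library and state; with the shared barcodes left out it averaged 79.2% in SYCE3-high cells. No test of these shares is given, because an exact permutation test over 3 libraries a side cannot pass 0.05.

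**Figure D1:**
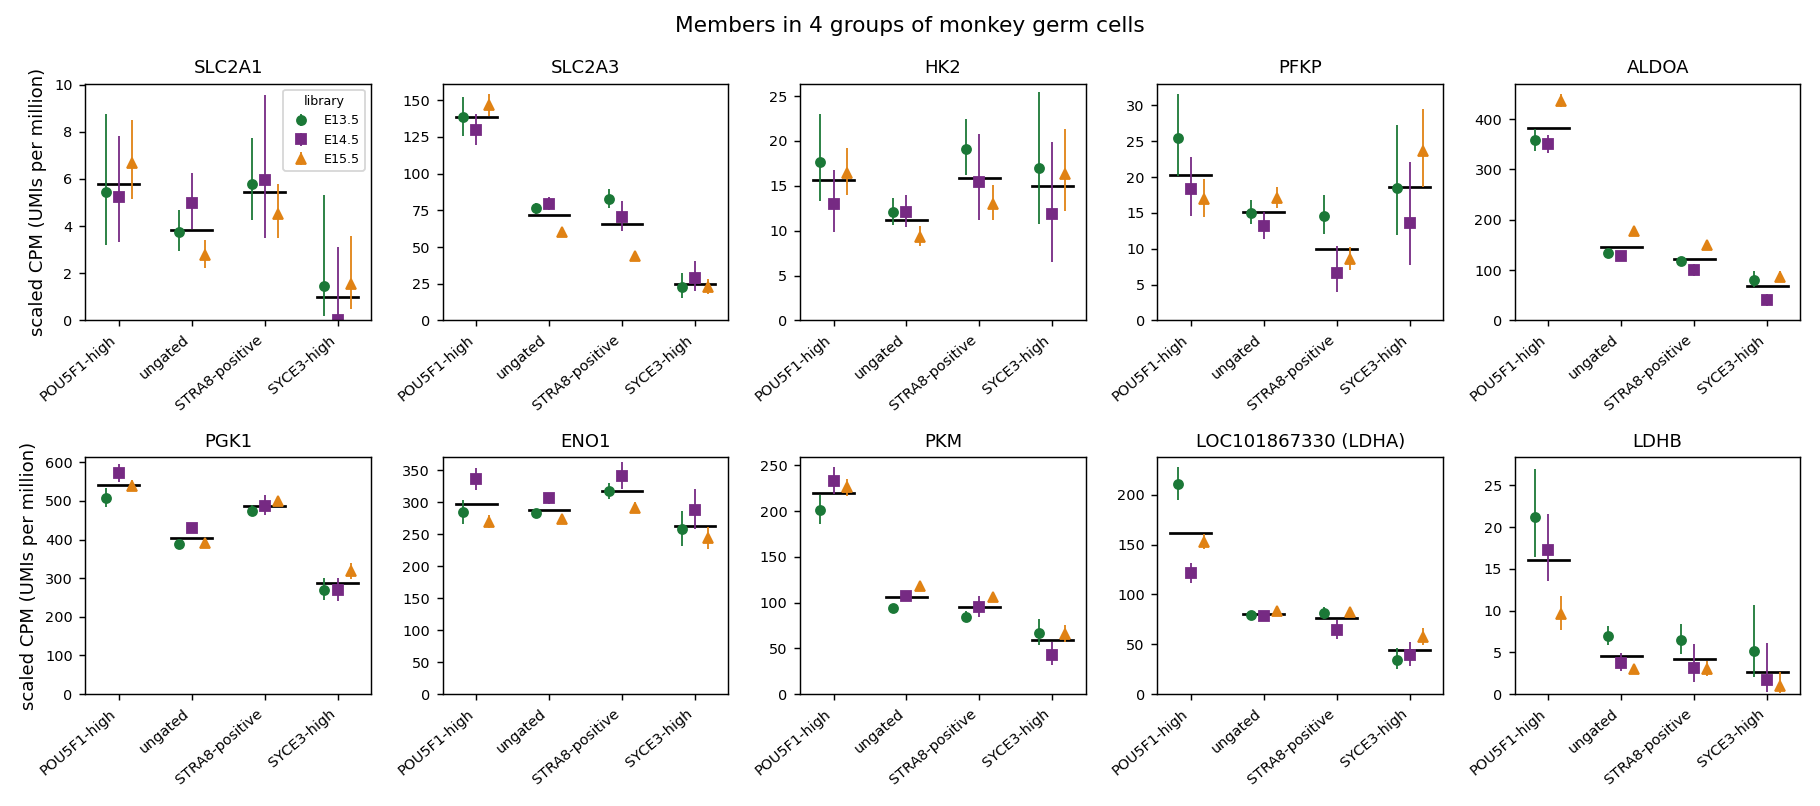
Level of each of the 10 genes in TMM-scaled CPM (vertical axes, from 0) in POU5F1-high, ungated, STRA8-positive and SYCE3-high germ cells. Points are libraries with 95% Poisson intervals of counting error and black lines are means of the 3 libraries; SLC2A3, ALDOA, PKM, LDHA and LDHB sit highest in POU5F1-high cells, while ENO1 and HK2 overlap between the end states.

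HK2, the hexokinase that phosphorylates incoming glucose at the mitochondrial surface, was not called different between POU5F1-high and either later gated state. It measured 17.7, 12.9 and 16.4 scaled CPM in POU5F1-high cells, 12.1, 12.1 and 9.34 in ungated cells, 19.1, 15.46 and 13.01 in STRA8-positive cells and 16.95, 11.9 and 16.3 in SYCE3-high cells. The POU5F1-high, STRA8-positive and SYCE3-high ranges overlapped throughout, and the ungated cells lay below POU5F1-high cells (log2 fold change −0.53 ± 0.16, adjusted p = 0.00532; −0.017, adjusted p = 0.928 on library totals). For SYCE3-high over POU5F1-high cells the difference was −0.024 ± 0.21 (adjusted p = 0.925), and 0.25 ± 0.39 (adjusted p = 0.607) without the shared barcodes. It became 0.59 (adjusted p = 0.0232) on library totals and 0.62 (adjusted p = 0.00227) with POU5F1 and STRA8 thresholds of 200 and 25 CPM and a SYCE3 top 10%. With those lower thresholds HK2 was also higher in SYCE3-high over STRA8-positive cells (0.94 ± 0.16, adjusted p = 8.62e-05), against 0.015 ± 0.21 (adjusted p = 0.959) with the thresholds above. A p above the threshold does not show that the states are alike.

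PFKP, the platelet-type phosphofructokinase that catalyses the committed step, was lowest in STRA8-positive cells. Its level was 25.4, 18.4 and 16.9 scaled CPM in POU5F1-high cells, 15.0, 13.1 and 17.1 in ungated cells, 14.6, 6.68 and 8.56 in STRA8-positive cells, and 18.4, 13.6 and 23.6 in SYCE3-high cells. Every STRA8-positive library was below every POU5F1-high library (log2 fold change −0.97 ± 0.20, adjusted p = 0.000365), although on library totals the call was lost (−0.45, adjusted p = 0.0613). SYCE3-high cells were above STRA8-positive cells by 0.99 ± 0.25 (adjusted p = 0.00252), the only higher call among the 9 genes. It did not hold: with the lower thresholds the difference was 0.48 (adjusted p = 0.110), without E15.5 0.53 (adjusted p = 0.197), with cells thinned to 10000 UMIs each 0.43 (adjusted p = 0.389), and without the shared barcodes −0.18 ± 0.55 (adjusted p = 0.834).

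ALDOA, the aldolase that splits fructose bisphosphate, was lower in the later states on high counts. It read 358, 350.3 and 436 scaled CPM in POU5F1-high cells, 133, 129 and 177 in ungated cells, 117, 99.4 and 149.9 in STRA8-positive cells, and 81.1, 39.9 and 86.9 in SYCE3-high cells. The SYCE3-high libraries fell below all STRA8-positive libraries, and both groups lay far below POU5F1-high cells. The log2 fold change was −1.65 ± 0.10 (adjusted p = 1.24e-10) for STRA8-positive over POU5F1-high cells and −2.45 ± 0.12 (adjusted p = 3.43e-12) for SYCE3-high over POU5F1-high cells, or 5.48-fold lower. Without the shared barcodes the SYCE3-high difference was −1.92 ± 0.18 (adjusted p = 2.99e-10), and on library totals −1.83 ± 0.12 (adjusted p = 2.06e-10). Between SYCE3-high and STRA8-positive cells it was −0.80 ± 0.13 (adjusted p = 3.77e-05), and −0.48 ± 0.20 (adjusted p = 0.0653) without the shared barcodes.

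After thinning each cell to 10000 UMIs, an ALDOA UMI was seen in 51.9, 37.0 and 60.0% of SYCE3-high cells, and in 93.4, 88.9 and 94.8% of POU5F1-high cells. For SLC2A3 the shares were 29.6, 18.5 and 14.55% in SYCE3-high cells and 62.3, 46.8 and 65.2% in POU5F1-high cells. Mouse barcodes of the same thinned depth held a SLC2A3 UMI in 1.36, 0 and 1.42% of cells, over 221, 144 and 282 cells; the count of 0 has an exact 95% upper bound of 2.53%, and the SYCE3-high shares lay above these values. Without thinning, the SLC2A3 shares were 51.9, 40.7 and 47.3% in SYCE3-high cells and 98.4, 95.2 and 97.0% in POU5F1-high cells. At equal depth the share was lower in SYCE3-high than in POU5F1-high cells in each library, for both genes. On the 6, 18 and 8 SYCE3-high cells with no shared barcode the thinned shares were 33.3, 22.2 and 0% for SLC2A3 and 66.7, 44.4 and 87.5% for ALDOA.

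PGK1, the X-linked phosphoglycerate kinase of the first ATP-yielding step, kept most of its level until the SYCE3-high state. It measured 509, 572 and 539 scaled CPM in POU5F1-high cells, 389.9, 431 and 390.2 in ungated cells, 475, 488 and 499 in STRA8-positive cells, and 271, 271 and 318 in SYCE3-high cells. The STRA8-positive libraries were all slightly below the POU5F1-high ones, without passing the test (−0.15 ± 0.075, adjusted p = 0.0922; 0.40 on library totals, adjusted p = 6.71e-05). In SYCE3-high cells PGK1 was lower than in STRA8-positive cells by a log2 fold change of −0.76 ± 0.081 (adjusted p = 3.43e-07), and by −0.65 ± 0.13 (adjusted p = 0.000358) without the shared barcodes. Against POU5F1-high cells the difference was −0.90 ± 0.081 (adjusted p = 1.06e-08), −0.67 ± 0.13 (adjusted p = 9.23e-05) without the shared barcodes and −0.29 ± 0.077 (adjusted p = 0.00276) on library totals. PGK2, the autosomal testis form known from mouse and human, had 0 UMIs in all 12 sums.

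ENO1, the widespread enolase, was not called different between POU5F1-high cells and any other group. It was counted at 285, 336 and 270.1 scaled CPM in POU5F1-high cells, 283, 306 and 275 in ungated cells, 318, 341 and 292 in STRA8-positive cells, and 259, 288 and 244 in SYCE3-high cells. The POU5F1-high range overlapped that of each other group, while the SYCE3-high libraries lay below every STRA8-positive one. The difference of SYCE3-high from STRA8-positive cells was −0.27 ± 0.074 (adjusted p = 0.00535) and did not pass the test without the shared barcodes (−0.28 ± 0.13, adjusted p = 0.117) or without E15.5 (−0.26, adjusted p = 0.0635). STRA8-positive over POU5F1-high cells gave 0.098 ± 0.070 (adjusted p = 0.221), and 0.64 (adjusted p = 7.17e-08) on library totals. For SYCE3-high over POU5F1-high cells the sign turned with the scaling, from −0.17 ± 0.075 (adjusted p = 0.0508) with TMM to 0.45 ± 0.070 (adjusted p = 1.43e-05) on library totals.

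PKM, the pyruvate kinase that closes the pathway, followed ALDOA. Its level was 201, 233 and 226 scaled CPM in POU5F1-high cells, 93.8, 107 and 118 in ungated cells, 84.7, 95.6 and 106 in STRA8-positive cells, and 67.1, 43.3 and 65.7 in SYCE3-high cells. The order of the states was the same in each library, with no overlap between POU5F1-high cells and any later group. The log2 fold change was −1.21 ± 0.099 (adjusted p = 4.40e-09) for STRA8-positive over POU5F1-high cells and −1.89 ± 0.12 (adjusted p = 9.50e-11) for SYCE3-high over POU5F1-high cells. The SYCE3-high value was −2.09 ± 0.20 (adjusted p = 7.17e-10) without the shared barcodes, and −1.27 ± 0.12 (adjusted p = 3.10e-08) on library totals. SYCE3-high cells were lower than STRA8-positive cells by −0.68 ± 0.12 (adjusted p = 0.000161), and by −1.04 ± 0.22 (adjusted p = 0.000609) without the shared barcodes. The gene-level counts do not separate its M1 and M2 splice forms.

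Lactate dehydrogenase is a tetramer of A and B chains, and both genes were lower in later states. LDHA (LOC101867330) read 211, 121 and 153 scaled CPM in POU5F1-high cells, 78.9, 78.3 and 82.9 in ungated cells, 81.3, 64.3 and 82.5 in STRA8-positive cells, and 34.6, 39.0 and 57.7 in SYCE3-high cells. Its groups did not overlap between POU5F1-high and later cells, with log2 fold changes of −1.06 ± 0.13 (adjusted p = 1.22e-06) for STRA8-positive and −1.78 ± 0.17 (adjusted p = 1.95e-08) for SYCE3-high over POU5F1-high cells. Without the shared barcodes the SYCE3-high value was −1.64 ± 0.22 (adjusted p = 3.00e-07), and on library totals −1.17 ± 0.18 (adjusted p = 1.17e-05). Among the POU5F1-high libraries E13.5 was the highest. Between SYCE3-high and STRA8-positive cells the log2 fold change was −0.73 ± 0.17 (adjusted p = 0.00165), and −0.81 ± 0.24 (adjusted p = 0.00931) without the shared barcodes. LOC101867330 stands between MYCBP2 and SCEL in the feature order. A feature without a name, LOC102118498, stands between LDHC and GTF2H1, where human LDHA lies, and averaged 3.17 ± 0.752 CPM in germ cells (SD, n = 3); which locus the LDHA reads came from was not tested.

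LDHB, the B chain, was also lower in later states, on few counts. It had 21.2, 17.2 and 9.55 scaled CPM in POU5F1-high cells, 6.93, 3.74 and 2.98 in ungated cells, and 6.42, 3.16 and 2.95 in STRA8-positive cells. In SYCE3-high cells it rested on 7, 2 and 3 UMIs. The STRA8-positive libraries lay below every POU5F1-high library, with a log2 fold change of −1.88 ± 0.22 (adjusted p = 3.73e-07), and SYCE3-high over POU5F1-high gave −2.77 ± 0.35 (adjusted p = 9.44e-07), or −2.93 ± 0.74 (adjusted p = 0.00147) without the shared barcodes. Between SYCE3-high and STRA8-positive cells the difference of −0.89 ± 0.42 did not pass the test (adjusted p = 0.0785). LDHA held 90.8 ± 3.29% of the LDHA plus LDHB UMIs in POU5F1-high cells, 94.6 ± 2.40% in ungated cells, 94.8 ± 1.98% in STRA8-positive cells and 93.8 ± 5.97% in SYCE3-high cells (SD, n = 3), and the ranges of the libraries overlapped between the groups.

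**Figure D2:**
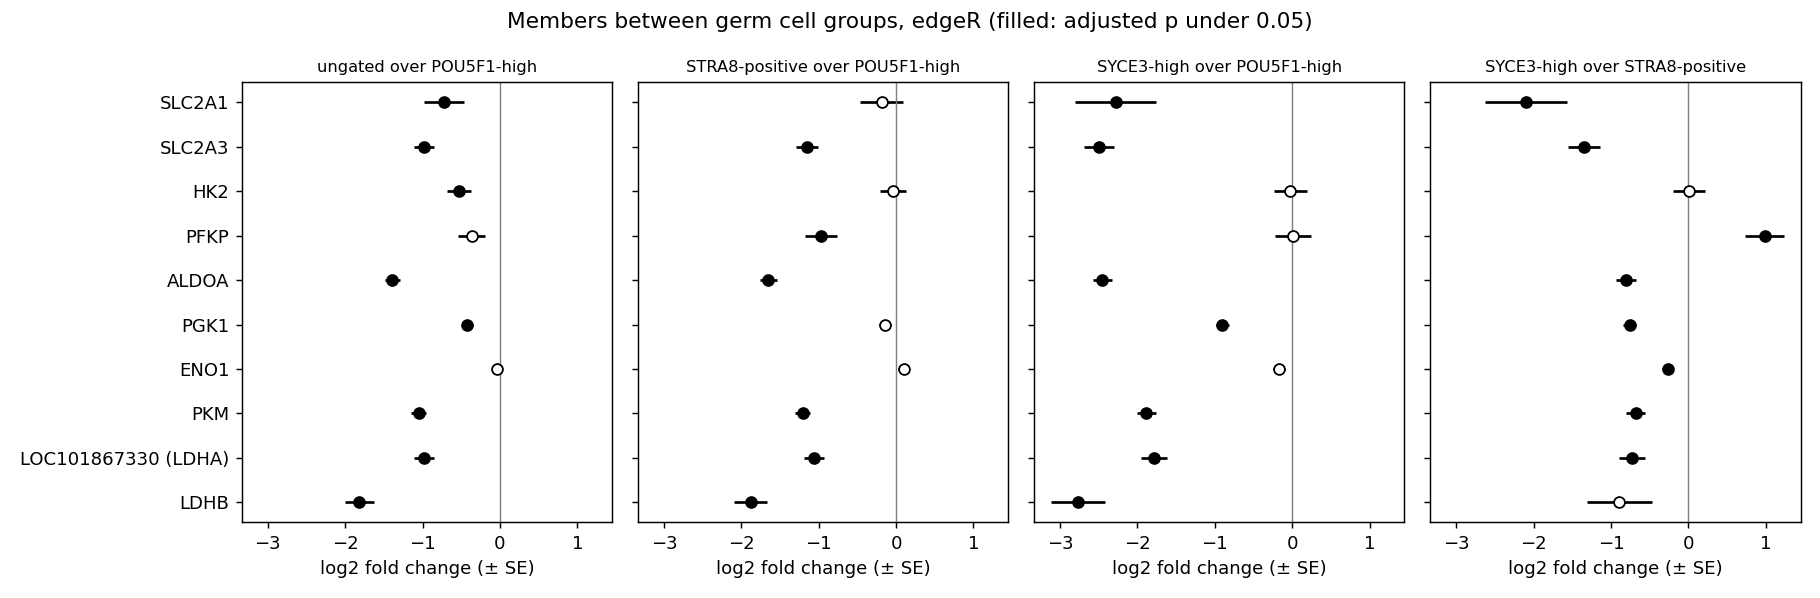
Log2 fold change with its SE of each gene for ungated, STRA8-positive and SYCE3-high over POU5F1-high cells and for SYCE3-high over STRA8-positive cells, from edgeR. Filled points passed an adjusted p of 0.05: most lie left of 0, and PFKP in the last panel is the single filled point to the right, at 0.99.

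Set against POU5F1-high cells, 5 of the 9 genes were called lower and 0 higher in STRA8-positive cells, where 33.4% of all genes tested were called lower and 34.6% higher. The median log2 fold change was −0.97 over the 9 genes and 0.041 over all genes. In SYCE3-high cells 6 were lower and 0 higher, with a background of 35% lower and 36% higher and a median of −1.89 over the 9 genes and 0.024 over all genes. In ungated cells 7 were lower and 0 higher, where 33% of all genes were lower and 34.8% higher. The ungated calls for SLC2A1 (−0.72 ± 0.26, adjusted p = 0.0198) and HK2 were lost without E15.5 (−0.29, adjusted p = 0.488, and −0.32, adjusted p = 0.192). In each of these 3 comparisons the higher count was also 0 at an unadjusted p under 0.05 and with DESeq2. In SYCE3-high over STRA8-positive cells 6 were lower and 1 higher, where 27.8% of genes were lower and 26.5% higher. On library totals, where most of all called genes were higher, 3 genes turned to higher calls against POU5F1-high cells in each later state. They were ENO1, PGK1 and HK2 in STRA8-positive cells, and ENO1, PFKP and HK2 in SYCE3-high cells. SLC2A3, ALDOA, PKM, LDHB and LDHA were lower in both later states on either scale. Without the shared barcodes the lower calls numbered 5 in STRA8-positive and 6 in SYCE3-high over POU5F1-high cells, where PFKP (−1.26 ± 0.48, adjusted p = 0.0282) entered and SLC2A1 left. Between SYCE3-high and STRA8-positive cells the lower calls were then 3, namely SLC2A3, PGK1 and PKM.

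Markers of mouse somatic cells in germ barcodes differed between the states, and not all in the same direction. The 6 supporting cell markers, all detected, summed to 12.1 to 21.1 CPM in POU5F1-high cells, 72.5 to 90.9 CPM in ungated cells, 78.9 to 99.97 CPM in STRA8-positive cells and 21.2 to 87.3 CPM in SYCE3-high cells. Stroma markers (6) summed to between 58.0 and 115 CPM in the later and ungated groups and to 12.3 to 29.0 CPM in POU5F1-high cells, and surface epithelium markers (4) to between 33.5 and 238 CPM in those groups and 17.6 to 29.8 CPM in POU5F1-high cells. In mouse barcodes the surface epithelium markers themselves summed to 87.9 to 347 CPM. Endothelium markers (4) went the other way, at 36.3 to 45.8 CPM in POU5F1-high cells and 3.6 to 9.57 CPM in mouse barcodes. They summed to 9.2 to 12.8 CPM in ungated, 6.49 to 10.5 CPM in STRA8-positive and 0 to 6.13 CPM in SYCE3-high cells. Blood markers summed to under 50 CPM in every group. How much of these sums is mouse RNA was not tested. If WNT4 in germ cells is taken as a measure of mouse RNA, germ barcodes held 1.15, 1.99 and 1.04% of the mouse level. That stands for 5.72, 7.75 and 6.73 CPM of ALDOA, beside 156, 155.1 and 213 CPM measured in germ cells. The other marker lists would give other shares. Without the 5% of germ barcodes highest in such markers, the numbers of the 9 genes called higher and lower were the same in all 4 comparisons.

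The other enzymes of the pathway formed a list of 21, also drawn up with earlier results of these data known. Of 15 tested, 5 were higher and 5 lower in STRA8-positive over POU5F1-high cells, and 4 higher and 7 lower in SYCE3-high over POU5F1-high cells (medians 0.13 and −0.63). The 5 of 15 each way stand beside 34.6% of all genes higher and 33.4% lower, and are near that background. For SYCE3-high over STRA8-positive cells the counts were 3 higher and 9 lower, where 26.5% of all genes were higher and 27.8% lower. The background of SYCE3-high over POU5F1-high cells was 36% higher and 35% lower. On library totals the counts over POU5F1-high cells were 9 higher and 3 lower in STRA8-positive cells, and 7 and 5 in SYCE3-high cells. Most of all called genes were higher on that scale. HK1, the constitutive hexokinase, was counted at 81.7, 85.3 and 70.2 scaled CPM in POU5F1-high cells, at 17.8, 23.2 and 16.8 in STRA8-positive cells and at 12.5, 7.63 and 11.1 in SYCE3-high cells, and fell without overlap (log2 fold change −2.07 ± 0.11, adjusted p = 1.26e-11, and −2.84 ± 0.16, adjusted p = 1.93e-11). The SYCE3-high value without the shared barcodes was −2.66 ± 0.29 (adjusted p = 6.48e-09). PFKL, the liver-type phosphofructokinase, was lower in SYCE3-high than in STRA8-positive cells by −1.57 ± 0.18 (adjusted p = 1.12e-06), and by −1.37 ± 0.33 (adjusted p = 0.00215) without the shared barcodes.

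ENO3 and LDHC were higher in the later states. ENO3, known as the muscle enolase, measured 40.2, 39.7 and 35.5 scaled CPM in POU5F1-high cells, 205, 183 and 189 in STRA8-positive cells and 147, 122 and 103 in SYCE3-high cells, with a log2 fold change of 2.34 ± 0.12 (adjusted p = 6.77e-12) for STRA8-positive over POU5F1-high cells. LDHC, the lactate dehydrogenase best known from testis and sperm, stood at 5.47, 9.98 and 7.19 scaled CPM in POU5F1-high cells, 31.6, 40.4 and 39.3 in STRA8-positive cells and 48.7, 103 and 68.1 in SYCE3-high cells. Its log2 fold change was 2.34 ± 0.18 (adjusted p = 2.36e-09) for STRA8-positive and 3.26 ± 0.19 (adjusted p = 3.53e-11) for SYCE3-high over POU5F1-high cells, the last 3.19 ± 0.26 (adjusted p = 3.40e-11) without the shared barcodes. As a share of LDHC plus LDHA UMIs, LDHC was 4.88 ± 2.56% in POU5F1-high cells, 28.9 ± 2.79% in ungated cells, 32.9 ± 5.34% in STRA8-positive cells and 61.7 ± 9.67% in SYCE3-high cells (SD, n = 3). Mouse barcodes, counted on monkey genes, gave 24.9 ± 1.37%. Sharing of reads between the LDH genes was not tested. Without the shared barcodes the LDHC share was 4.94 ± 2.55% in POU5F1-high cells, 28.4 ± 6.17% in STRA8-positive cells and 53.1 ± 13.8% in SYCE3-high cells (7 of 17, 58 of 85 and 11 of 22 UMIs).

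LDHAL6B, an LDHA-like gene, had 9, 12 and 18 UMIs in SYCE3-high cells and 0, 1 and 3 UMIs in POU5F1-high cells. HK3, a low-count hexokinase, had 3, 4 and 11 UMIs in SYCE3-high cells and 5, 0 and 14 in STRA8-positive cells. Both were called higher in SYCE3-high over STRA8-positive cells (adjusted p = 5.97e-05 and 0.00422), on counts too small for a firm size and with no value without the shared barcodes. ENO2, the neuronal enolase, was called higher in ungated over POU5F1-high cells (adjusted p = 0.00137), with 0, 3 and 3 UMIs in POU5F1-high cells. GPI, TPI1, GAPDH and PGAM1 carry other steps of the pathway. With TMM, GPI, the glucose phosphate isomerase, was lower in STRA8-positive over POU5F1-high cells (−0.46 ± 0.092, adjusted p = 0.000259) and in SYCE3-high over POU5F1-high cells (−1.22 ± 0.11, adjusted p = 2.09e-08). In plain CPM, GPI was not lower in STRA8-positive cells (98.9 ± 14.3) than in POU5F1-high cells (92.9 ± 11.2), and averaged 59.7 ± 19.1 in SYCE3-high cells (SD, n = 3). PGAM1 averaged 79.5 ± 15.0 scaled CPM in SYCE3-high cells, against 319 ± 31.2 in POU5F1-high cells, and TPI1 averaged 89.4 ± 4.72 in STRA8-positive cells, against 42.3 ± 0.728 in POU5F1-high cells (SD, n = 3). With TMM, GAPDH was lower in SYCE3-high over POU5F1-high cells (−0.71 ± 0.11, adjusted p = 1.14e-05), at 821, 554 and 845 scaled CPM in SYCE3-high cells against 1095, 1243 and 1307 in POU5F1-high cells. In plain CPM its library ranges overlapped, at 601 to 993 in SYCE3-high and 858 to 1001 in POU5F1-high cells.

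**Figure D3:**
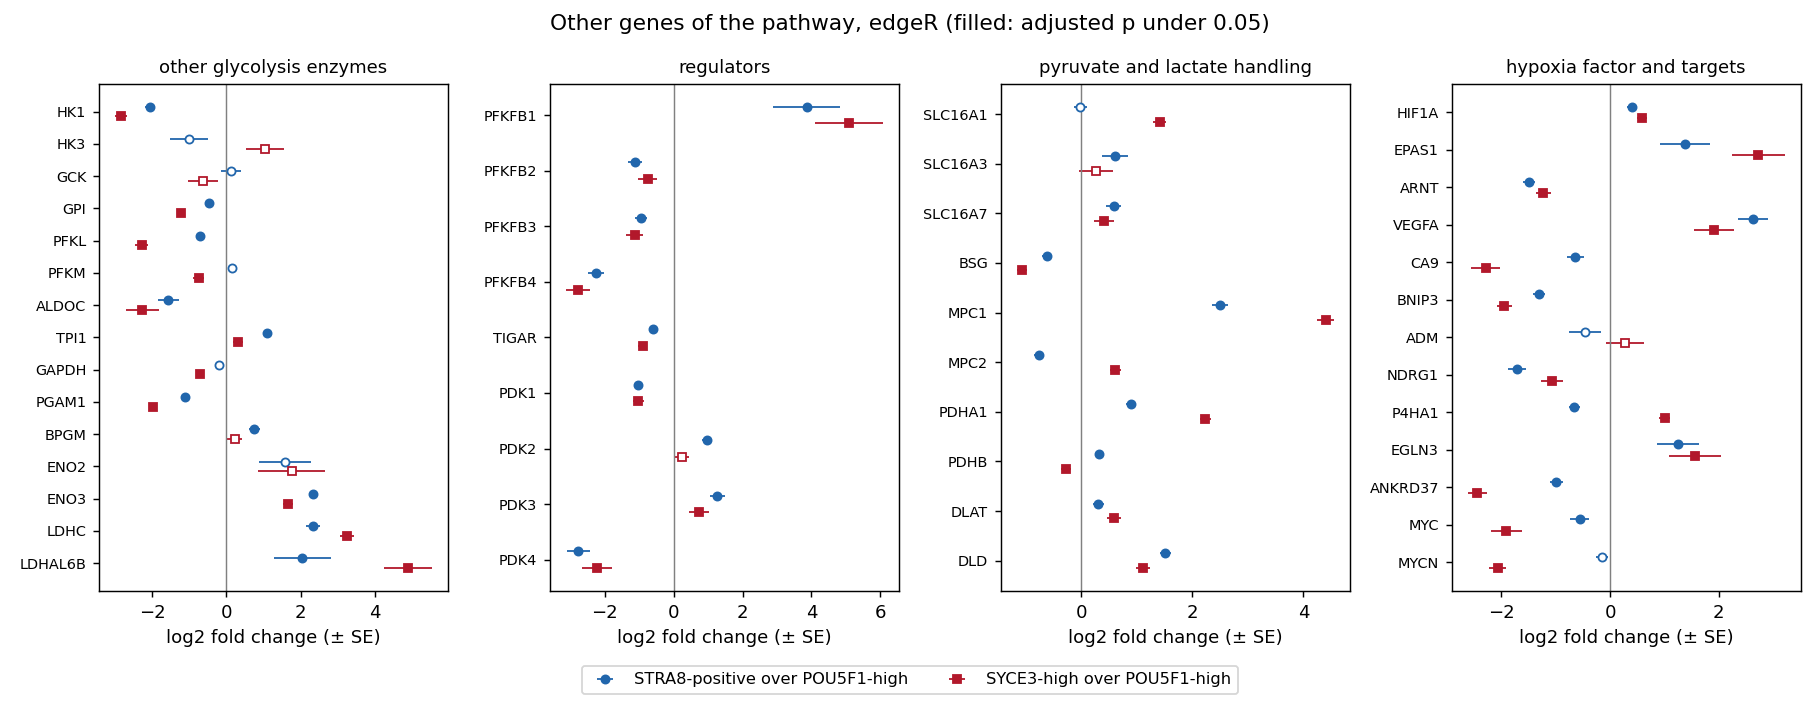
Log2 fold change with its SE of the tested genes of 4 lists (other glycolysis enzymes, regulators, pyruvate and lactate handling, hypoxia factor and targets) for STRA8-positive (circles) and SYCE3-high (squares) over POU5F1-high cells, from edgeR. Filled marks passed an adjusted p of 0.05: HK1, PFKFB4 and PDK4 lie to the left in both comparisons, and LDHC, MPC1 and PDHA1 to the right.

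Among genes that handle pyruvate and lactate, MPC1 and PDHA1 were higher in both later states, while MPC2 was lower in STRA8-positive cells. Of 10 genes for pyruvate and lactate handling, 7 were higher and 2 lower in STRA8-positive over POU5F1-high cells, and likewise 7 and 2 in SYCE3-high over POU5F1-high cells (medians 0.45 and 0.60), where 34.6% of all genes were higher and 33.4% lower in STRA8-positive cells, and 36% higher and 35% lower in SYCE3-high cells. On library totals the counts were 8 higher and 1 lower in STRA8-positive cells, and 9 and 1 in SYCE3-high cells. Most of all called genes were higher on that scale. Without the shared barcodes the counts of the list were 5 and 2, and 5 and 1. Of the same genes 5 were higher and 3 lower in SYCE3-high over STRA8-positive cells, where 26.5% of all genes were higher and 27.8% lower. MPC1, a subunit of the mitochondrial pyruvate carrier, read 9.32, 14.3 and 12.5 scaled CPM in POU5F1-high cells, 66.7, 71.3 and 70.0 in STRA8-positive cells and 217, 350.2 and 234 in SYCE3-high cells. The groups were far apart in each library, the log2 fold change being 2.501 ± 0.15 (adjusted p = 5.34e-11) for STRA8-positive and 4.40 ± 0.15 (adjusted p = 1.49e-14) for SYCE3-high over POU5F1-high cells, the last 4.65 ± 0.16 (adjusted p = 1.29e-19) without the shared barcodes. MPC2, the partner subunit, averaged 84.1 ± 8.95 scaled CPM in STRA8-positive cells and 144.9 ± 31.5 in POU5F1-high cells (SD, n = 3; log2 fold change −0.76 ± 0.091, adjusted p = 6.42e-07). It was also lower in ungated than in POU5F1-high cells (−0.73 ± 0.087, adjusted p = 5.71e-07). Both falls were smaller off the TMM scale. On library totals the ungated difference was −0.21 ± 0.080 (adjusted p = 0.0225). Plain CPM averaged 91.6 ± 9.30 in STRA8-positive and 107 ± 16.0 in POU5F1-high cells (SD, n = 3). MPC2 was higher in SYCE3-high than in STRA8-positive cells (1.37 ± 0.096, adjusted p = 1.59e-09, and 1.22 ± 0.14, adjusted p = 1.08e-07 without the shared barcodes).

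PDHA1, the X-linked E1 alpha subunit of pyruvate dehydrogenase, averaged 281 ± 50.1 scaled CPM in SYCE3-high cells and 58.5 ± 1.07 in POU5F1-high cells (SD, n = 3; log2 fold change 2.23 ± 0.096, adjusted p = 3.91e-13; 2.32 ± 0.13, adjusted p = 1.05e-14 without the shared barcodes). It has a close intronless relative, PDHA2, so its reads may be shared. DLD, the E3 subunit, was higher in STRA8-positive over POU5F1-high cells by 1.52 ± 0.10 (adjusted p = 4.08e-10). SLC16A1 (MCT1), a lactate and pyruvate transporter of the cell surface, averaged 66.0 ± 12.6 scaled CPM in SYCE3-high cells and 24.2 ± 4.05 in STRA8-positive cells (SD, n = 3; log2 fold change 1.42 ± 0.12, adjusted p = 2.21e-08; 1.02 ± 0.24, adjusted p = 0.00134 without the shared barcodes).

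Among 9 regulators, 3 were higher and 6 lower in STRA8-positive over POU5F1-high cells, and 2 higher and 6 lower in SYCE3-high over POU5F1-high cells (medians −0.95 and −0.90). Of all genes tested, 34.6% were higher and 33.4% lower, and 36% and 35%, in these comparisons. For SYCE3-high over STRA8-positive cells, given below, the shares were 26.5% and 27.8%. On library totals the regulators called were 3 higher and 5 lower, and 3 and 4. Most of all called genes were higher on that scale. PFKFB4, which sets the level of a sugar phosphate signal to phosphofructokinase, had 2.01, 2.46 and 3.38 scaled CPM in STRA8-positive cells and 14.1, 12.7 and 12.5 in POU5F1-high cells (−2.24 ± 0.23, adjusted p = 9.46e-08). PDK4, a kinase that switches pyruvate dehydrogenase off, was at 2.39, 1.05 and 1.65 scaled CPM in STRA8-positive cells and 11.6, 12.9 and 11.1 in POU5F1-high cells (−2.77 ± 0.34, adjusted p = 7.82e-07). Both were lower in SYCE3-high cells too, PFKFB4 by −2.77 ± 0.36 (adjusted p = 1.35e-06) and PDK4 by −2.23 ± 0.44 (adjusted p = 0.000180), and without the shared barcodes by −2.67 ± 0.74 (adjusted p = 0.00345) and −3.44 ± 1.06 (adjusted p = 0.00781). PFKFB1, the liver-type isozyme of the same family as PFKFB4, was called higher (adjusted p = 0.00166 and 0.000162). It had 0, 0 and 1 UMIs in POU5F1-high cells, 7, 2 and 14 in STRA8-positive cells and 3, 5 and 5 in SYCE3-high cells. Between SYCE3-high and STRA8-positive cells 2 regulators were lower, PDK2 (−0.73 ± 0.19, adjusted p = 0.00322) and TIGAR (−0.31 ± 0.12, adjusted p = 0.0388), and 0 higher. Without the shared barcodes neither passed the test, PDK2 at −0.95 ± 0.43 (adjusted p = 0.0907) and TIGAR at −0.46 ± 0.26 (adjusted p = 0.194).

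The 13 genes of the hypoxia-inducible factor list did not move one way. Of them 4 were higher and 7 lower in STRA8-positive over POU5F1-high cells, and 5 higher and 7 lower in SYCE3-high over POU5F1-high cells (medians −0.56 and −1.07). SYCE3-high over STRA8-positive cells gave 3 higher and 6 lower (median 0.19). Of all genes tested, 34.6% were higher and 33.4% lower, 36% and 35%, and 26.5% and 27.8% in these 3 comparisons. The higher counts of the list are near that background and the lower counts above it. The list also holds MYC and MYCN, both among the lower calls in the SYCE3-high comparisons. On library totals the counts over POU5F1-high cells were 5 higher and 4 lower in STRA8-positive cells, and 6 and 6 in SYCE3-high cells. Most of all called genes were higher on that scale. VEGFA, a secreted angiogenic factor, was at 18.8, 15.46 and 14.9 scaled CPM in STRA8-positive cells and 0.643, 2.496 and 3.39 in POU5F1-high cells (2.63 ± 0.27, adjusted p = 8.14e-08). ARNT, the common partner of HIF1A and EPAS1, was lower in STRA8-positive over POU5F1-high cells (−1.49 ± 0.11, adjusted p = 1.08e-09), as was NDRG1, a hypoxia-responsive gene (−1.72 ± 0.17, adjusted p = 4.82e-08). CA9, a carbonic anhydrase, and ANKRD37 were lower in SYCE3-high over POU5F1-high cells (−2.29 ± 0.26, adjusted p = 3.52e-07, and −2.44 ± 0.18, adjusted p = 9.48e-10), and without the shared barcodes by −2.51 ± 0.57 (adjusted p = 0.000485) and −2.56 ± 0.31 (adjusted p = 8.11e-08). EPAS1 was higher there (2.72 ± 0.49, adjusted p = 6.57e-05), with 0, 8 and 11 UMIs in POU5F1-high cells, and 1.73 ± 1.04 (adjusted p = 0.168) without the shared barcodes. P4HA1, a collagen prolyl hydroxylase, was higher in SYCE3-high over STRA8-positive cells (1.66 ± 0.10, adjusted p = 2.98e-10), whereas MYCN, a transcription factor, was lower (−1.92 ± 0.16, adjusted p = 1.16e-08). P4HA1 gave 1.77 ± 0.18 (adjusted p = 8.47e-09) and MYCN −1.74 ± 0.29 (adjusted p = 2.47e-05) without the shared barcodes. In ungated over POU5F1-high cells EGLN3, a prolyl hydroxylase that marks the factor for destruction, was higher (1.59 ± 0.34, adjusted p = 0.000415).

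The genes most alike in pattern were sought among 7301 genes over the 12 sums of state and library, on log2(CPM + 1) of total UMIs. These sums share cells' library and depth, so the correlations are a description. SLC2A3 was nearest to DHX37 (Pearson r = 0.98), SLC7A5 (0.98) and LBH (0.97). ALDOA and PKM had CFL1 and LOC102138258, an unnamed feature, among their 3 nearest (r = 0.98 to 0.995), and PKM was itself the third nearest to ALDOA. For ENO1 they were CAST, PNMAL1 and SNX6 (0.97 each), and for PGK1 DUSP23, ACAT1 and CASP6 (0.95 to 0.96). The nearest gene was ELOVL5 (0.96) for SLC2A1, ZMAT2 (0.97) for LDHB and PRPSAP1 (0.95) for LDHA. For HK2 it was HSD17B4 (0.90) and for PFKP NUP85 (0.85), the lowest of the 10 nearest values. Across single cells within a state, after thinning, the 45 pairs of the 10 genes had correlations between −0.21 and 0.19 with medians of −0.0061 to 0.025 by group, which in counts this sparse is no finding.

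SLC2A3 was higher and SLC2A1 lower in germ cells than in the mouse somatic barcodes. SLC2A3 measured 86.0, 81.4 and 69.9 CPM of total UMIs in germ cells, against 0.945, 0.721 and 1.23 CPM in mouse barcodes, while SLC2A1 measured 4.53, 4.64 and 3.83 CPM in germ cells, against 13.1, 14.4 and 19.9 CPM in mouse barcodes. SLC2A3 was 94.8 ± 0.197% of the pair in germ cells and 5.76 ± 0.974% in mouse barcodes (SD, n = 3). ALDOA was the other gene with a lower level in germ cells (156, 155.1 and 213 CPM) than in mouse barcodes (498, 389.7 and 646 CPM). The remaining genes were higher in germ cells in each library, from PGK1 (439, 435 and 445 CPM in germ cells, 67.9, 56.4 and 82.2 CPM in mouse barcodes) to LDHB (8.51, 5.83 and 4.03 CPM in germ cells, 4.29, 1.98 and 3.69 CPM in mouse barcodes). HK2 measured 15.3, 12.1 and 11.98 CPM in germ cells, against 0.945, 1.80 and 1.14 CPM in mouse barcodes. Mouse reads were counted on monkey genes, so species, mapping and cell type cannot be told apart and no test is given.

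**Figure D4:**
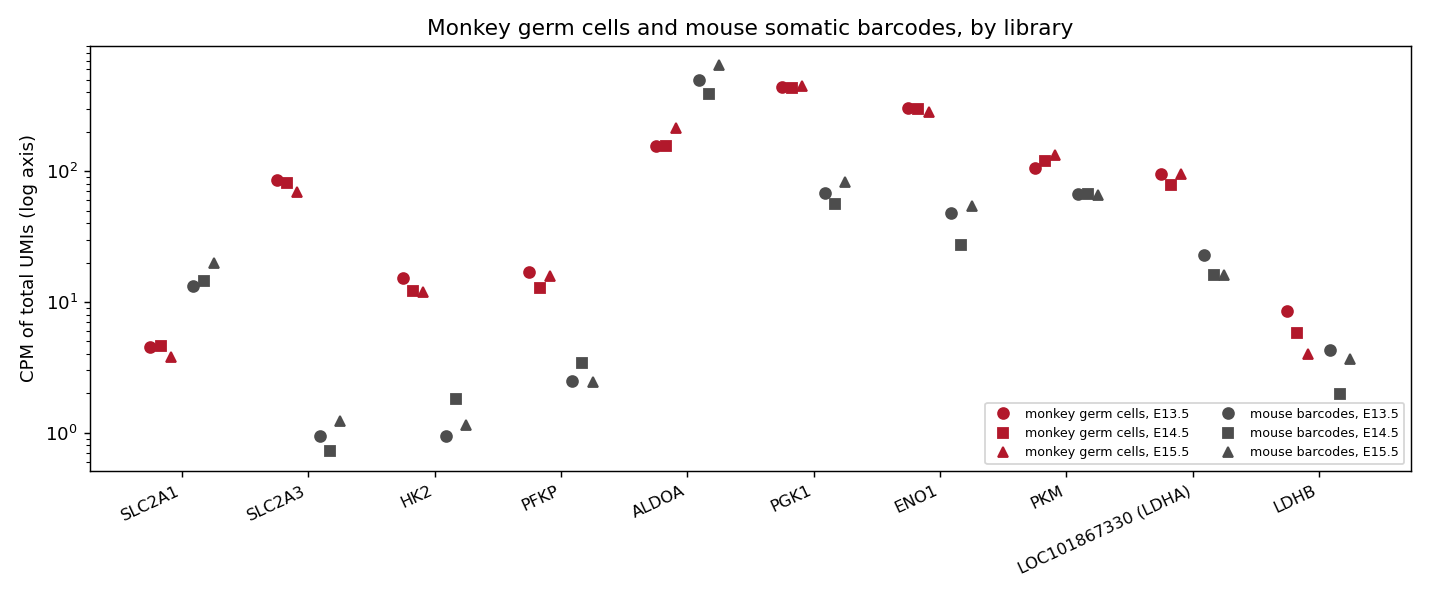
CPM of total UMIs of each gene (log axis) in monkey germ cells and in mouse somatic barcodes, 1 point per library. SLC2A1 and ALDOA are lower in germ cells than in mouse barcodes and the other genes higher, SLC2A3 by the widest gap (69.9 to 86.0 CPM against 0.721 to 1.23 CPM).

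Between the mouse stages, the germ cells as a whole differed little. With 1 library a stage there is no replicate check, and none of the 10 genes met the rule of a 2-fold difference in CPM + 1 with 20 CPM or more between E15.5 and E13.5, where 0.053% of 7553 genes at 20 CPM or more were 2-fold higher and 0.185% lower. Nor did any between E14.5 and E13.5 (background 0.256% higher and 0.242% lower) or between E15.5 and E14.5 (0.135% higher and 0.189% lower). SLC2A1, HK2, PFKP and LDHB lay under 20 CPM in the germ cells of every library. They could not meet the rule, so it says nothing about them. The largest log2 difference in CPM + 1 was for LDHB, −0.92, from 4.03 CPM in E15.5 and 8.51 CPM in E13.5 (95% exact interval of the ratio of the counts, without the added 1, −1.34 to −0.82). ALDOA was 0.44 higher (213 CPM in E15.5, 156 CPM in E13.5) and PKM 0.32 higher (133 CPM in E15.5, 106 CPM in E13.5), while the difference was −0.29 for SLC2A3 and −0.33 for HK2. PGK1 (0.020) and LDHA (−0.00029) were level, beside a median of −0.042 for all genes.

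Within states, LDHB was lower in E15.5 than in E13.5 in POU5F1-high (−1.08), ungated (−1.01), STRA8-positive (−0.95) and SYCE3-high cells (−1.75). ALDOA was higher in E15.5 in each of the 4 groups, by 0.25, 0.41, 0.32 and 0.11, the last with an interval that spans 0. SLC2A3 differed by −0.94 in STRA8-positive cells (47.3 CPM in E15.5, 91.3 CPM in E13.5) and by 0.049 in POU5F1-high cells (112 CPM in E15.5, 109 CPM in E13.5). The libraries also differ in the share of states: POU5F1-high cells were 20.7% of germ cells in E15.5 and 11.4% in E13.5. Sorting and mixing of cells can set such shares.

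**Figure D5:**
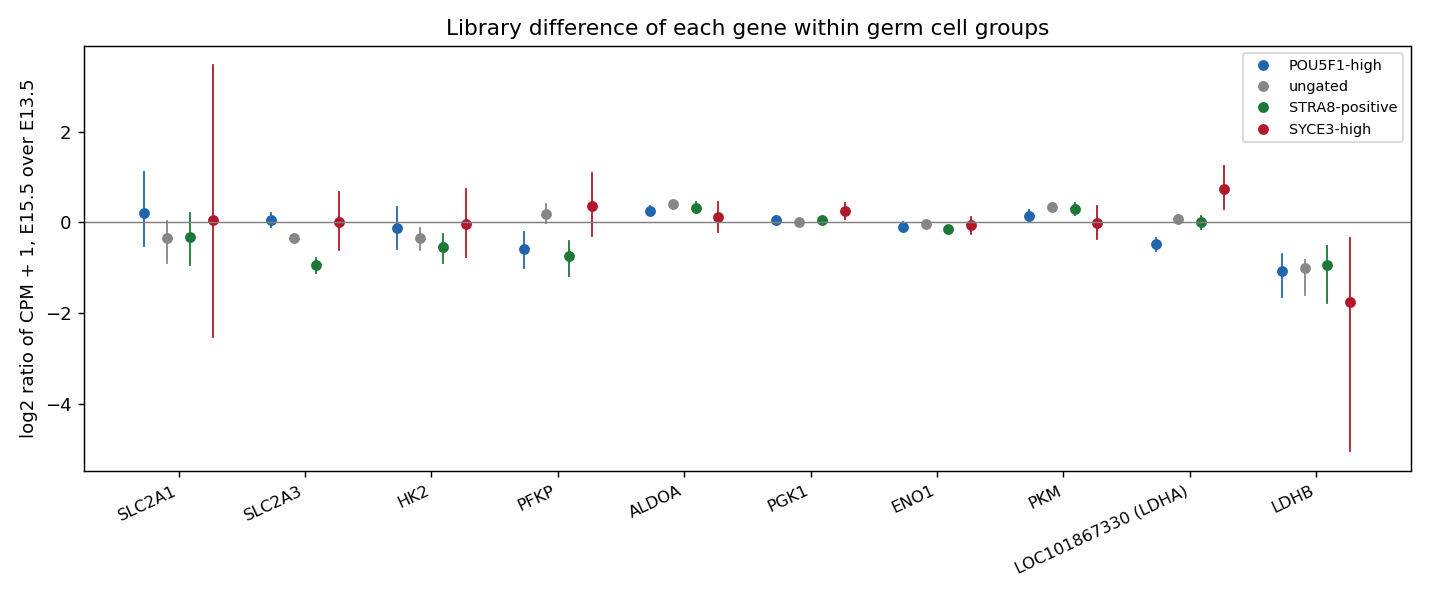
Log2 ratio of CPM + 1 between the E15.5 and E13.5 libraries for each gene in the 4 groups of germ cells, with 95% exact intervals of the count ratio. LDHB lies below 0 in all 4 groups and the ALDOA points above 0, and LDHA has opposite signs in SYCE3-high (0.74) and POU5F1-high cells (−0.49). Barcodes shared between libraries are included, and most SYCE3-high cells carry one.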

How the data were processed

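Polyadenylated RNA of 3 single-cell libraries (10x Genomics Chromium 3' v3.1) was counted by the authors as raw UMI counts per gene and barcode by Cell Ranger (version 6.0.1 in the deposited file headers); the other deposited files hold feature names and barcodes. The sources used here do not name the genome build, the annotation or the treatment of reads shared between gene copies. Deposited barcodes held 44762884, 30607553 and 70850640 UMIs. The genes and lists were chosen with earlier results of these data known. Germ cells, states and mouse barcodes (under 1% mitochondrial UMIs, at least 1000 UMIs) were gated as described, with at least 3 UMIs of POU5F1 or STRA8, and 14 STRA8-positive cells above the SYCE3 limit of 557 CPM were placed with SYCE3-high cells. No doublet caller was run; barcodes with the top 5% of UMIs or of mouse marker CPM were left out as alternatives. UMIs were summed per state and library (12 sums, 6 residual degrees of freedom) and tested with edgeR 4.0.16 in R 4.3.3 (filterByExpr, TMM, library as block, Benjamini-Hochberg at 0.05); DESeq2 1.42.0 was an alternative. The fit was tested on simulated counts. The states of a library were captured together, so the library block pairs them. Library ratios used log2(CPM + 1), with exact intervals from the conditional binomial of the 2 counts. Poisson and Clopper-Pearson intervals at 95%, and the floor of 3 counts, cover counting error only. Named list genes were the 3 largest changes past the threshold per list and comparison; GPI, TPI1, GAPDH, PGAM1, PGK2 and, for STRA8-positive cells, MPC2 were named after their values were seen. No feature was named PGAM2. Sums, shares and figures were made in Python 3.11.15 using scipy 1.17.1, numpy 2.4.6 and pandas 2.3.3. The alternatives are given with the limits.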

Additional observations from a re-analysis of the deposited data

Results flagged for a closer look

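Some genes moved in opposite directions between mouse stages in different germ cell groups, with exact counting intervals clear of 0. Each group had 1 library per stage, and the difference between groups was not tested. The log2 ratio of HK2 for E15.5 over E14.5 was −0.27 in ungated cells and 0.45 in POU5F1-high cells. For SLC2A3 the same ratio was 0.31 in POU5F1-high cells, −0.33 in ungated cells and −0.69 in STRA8-positive cells. PGK1 for E15.5 over E14.5 gave 0.35 in SYCE3-high cells and −0.068 in ungated cells. LDHA for E15.5 over E13.5 was 0.74 in SYCE3-high cells and −0.49 in POU5F1-high cells. PKM for E14.5 over E13.5 was −0.72 in SYCE3-high cells and 0.11 in ungated cells. These ratios include the barcodes shared between libraries. Without those, 6, 18 and 8 SYCE3-high cells remain, and no ratio within states is given for them.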

How the results depend on the processing

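Of 712 log2 fold changes of single genes under the alternatives, 22 lost and 10 gained the threshold with the same sign. Another 10 changed sign where the main or the alternative fit passed the threshold. The other 670 stayed on the same side of the threshold. They include sign changes where neither fit passed, which were not counted apart. The cause was not tested. Library totals in place of TMM, leaving out barcodes called in another library and counting LOC102118498 with LDHA were chosen after seeing the data. On library totals the higher calls became 3 for STRA8-positive and 3 for SYCE3-high over POU5F1-high cells, and ungated over POU5F1-high gave 1 higher and 4 lower; HK2 turned to 0.50 and PGK1 to 0.40 (STRA8-positive), HK2 to 0.59 and ENO1 to 0.45 (SYCE3-high), and PGK1 to 0.099 and ENO1 to 0.48 (ungated). The share of higher among called genes was 77.9, 74.2, 54.9 and 79.8%, and with TMM 50.9, 50.7, 48.8 and 51.3%, for STRA8-positive, SYCE3-high, SYCE3-high over STRA8-positive, and ungated. With lower state thresholds 1 gene was higher in SYCE3-high over POU5F1-high cells, where HK2 was 0.62 and PFKP −0.54, and in SYCE3-high over STRA8-positive cells HK2 (0.94) took the place of PFKP (0.48) as the higher call. Without shared barcodes SYCE3-high over STRA8-positive had 0 higher and 3 lower, and PFKP was −0.18 there and −1.26 over POU5F1-high; SLC2A3's share of the transporter pair was 79.2% in SYCE3-high cells, and E15.5 over E13.5 was −0.14 for SLC2A3, −0.18 for HK2, −0.59 for PFKP, 0.30 for ALDOA, 0.25 for PKM and −0.16 for LDHA. With cells thinned to 10000 UMIs, SYCE3-high over STRA8-positive had 0 higher and ungated over POU5F1-high 4 lower, LDHA's share was 97.3% in STRA8-positive cells, SLC2A3's share 93.4% in ungated and 91.4% in SYCE3-high cells, and E15.5 over E13.5 was 0.076 for PFKP and 0.12 for PKM; SLC2A1 and LDHB had too few counts for a fit there. Higher state thresholds put SLC2A3's share in POU5F1-high cells at 96.4%. Leaving out 1 library at a time gave 0 higher and 5 lower (STRA8-positive over POU5F1-high), 0 and 6 (SYCE3-high over POU5F1-high), 0 to 1 and 5 to 6 (SYCE3-high over STRA8-positive) and 0 and 6 to 7 (ungated over POU5F1-high), LDHA shares of 89.2 to 97.1% and SLC2A3 shares of 91.4 to 97.0% over the 4 groups. With no replicate block for library, the higher counts in the same order were 0, 0, 1 and 0 and the lower counts 5, 6, 5 and 6. No paired analysis was possible because each mouse stage has 1 library, as far as the stages are concerned. Depth limits SLC2A1 and LDHB in SYCE3-high cells.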
